A study of Rattus norvegicus with 6 samples.

Results

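The microRNA processing machinery is described here through 9 genes, Drosha, Dgcr8, Xpo5, Dicer1, Tarbp2 and the Argonaute genes Ago1, Ago2, Ago3 and Ago4, taken by name from a table of 32623 rat genes. Each symbol matched 1 row, and all 9 were among the 14166 genes with enough counts to test. The cells were C6, an established rat glioma line, kept in medium with fetal bovine serum. A first group of 3 libraries came from cells given forskolin (FSK) for 24 h, and a second group of 3 from cells given the solvent DMSO for the same time. Forskolin activates adenylyl cyclase and so raises cAMP. Total RNA was sequenced in read pairs, and no gene was targeted in these cells. The replicates carry numbers only. Whether each was its own culture is not said, and the spread behind every p-value may thus be technical.

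A microRNA is cut out of a long primary transcript in a series of steps. In the nucleus, the Microprocessor releases a hairpin; it consists of the ribonuclease DROSHA and its RNA-binding partner DGCR8. Exportin 5, from Xpo5, carries the hairpin to the cytoplasm, where DICER1, working with the double-stranded RNA-binding protein TARBP2, removes the loop. An Argonaute protein then keeps a single strand and uses it to find messenger RNAs, and the title of the study is about suppression of a pair of microRNAs, miR-221 and miR-222, in forskolin-treated glioma cells. The mature microRNAs are not analysed here, so the values below are messenger RNA levels of the machinery only.

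After forskolin, 4 genes of the steps before Argonaute rose and 2 Argonaute genes fell. Drosha, Dgcr8, Xpo5 and Tarbp2 rose by 15.1% to 39.3%, and Ago2 and Ago3 fell, Ago3 by 48.1%. Dicer1, Ago1 and Ago4 did not pass the test. Of the 9 genes, 4 rose and 2 fell, where 39.4% of all tested genes passed in either direction, 19.6% as rises and 19.8% as falls (edgeR quasi-likelihood test, Benjamini-Hochberg adjusted over all 14166 genes, threshold 0.05). The 2 groups did not overlap for 6 of the 9 genes, against 53.0% of all tested genes. The median log2 fold change of the 9 genes was -0.33, beside -0.01 for all tested genes. As the middle of 9 values it is that of Dicer1, which did not pass, and is not a shift shared by the members. The median absolute log2 fold change of the 9 genes was 0.35, beside 0.31, so the sizes were ordinary for this comparison. Of the 6 calls, those of Dgcr8, Ago2 and Ago3 passed under all 17 other processing choices, and those of Drosha, Xpo5 and Tarbp2 did not. The rises numbered 1 when DMSO replicate 2 or FSK replicate 3 was left out, 2 without FSK replicate 2, and 1 when libraries were scaled by their totals alone. The median of the members was 0.06 without DMSO replicate 2 and -0.04 without FSK replicate 1, each time the value of the nearly silent gene Ago4.

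**Figure D1:**
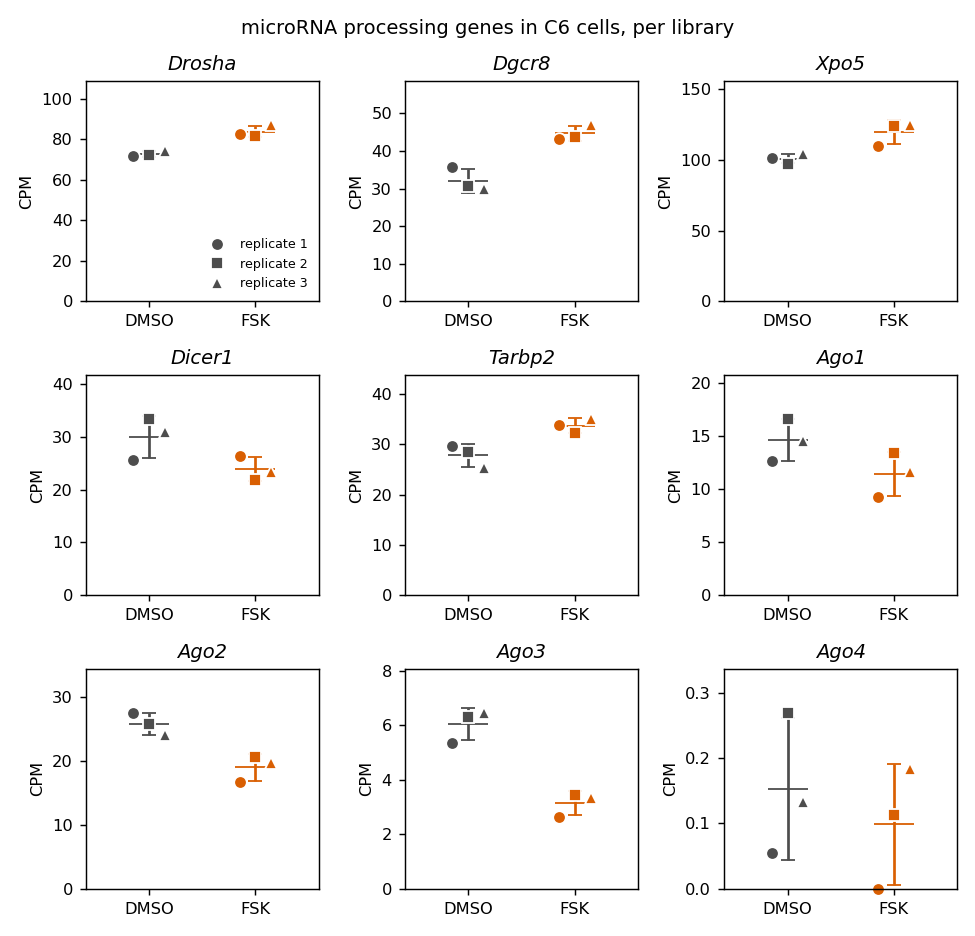
Level of each of the 9 genes in CPM (counts scaled by library total and a TMM factor), by group, with 1 symbol per library and the mean and SD (n = 3) as a bar; each axis starts at 0. The groups are apart for Drosha, Dgcr8, Xpo5, Tarbp2, Ago2 and Ago3 and overlap for Dicer1, Ago1 and Ago4.

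Library totals ran from 72.1 to 80.0 M counts. CPM values compare libraries but not genes, since they are not divided by length. The markers of the glial list were present, with summed levels of 3335 to 3576 CPM in DMSO and 5010 to 5122 in FSK; 7 of 9 were tested, Aqp4 had 0 counts in every library and Aldh1l1 was too low to test. Of the 7, 5 rose, Gfap most (3.46 on the log2 scale, edgeR adjusted p = 5.15e-08), while Nes fell by 0.90 (2.72e-05) and Slc1a3 by 1.38 (0.00538). Most of the sum is Vim, with means of 2144 and 2696 CPM. The part of these shifts in the results below was not tested. The summed level of the 4 neuron markers was 0.784 to 2.51 CPM in DMSO and 0.704 to 1.27 in FSK, with Rbfox3 at 0. For the 5 microglia and macrophage markers it was at most 0.814 CPM in any library. The 3 endothelial markers found in the table reached at most 1.70 CPM, with Cdh5 at 0. Dcn and Lum were at or near 0, and the mural gene Pdgfrb had a mean of 24.8 CPM in DMSO and 32.6 in FSK. In a bulk library, fewer cells of a kind and less RNA per cell cannot be told apart.

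Levels between genes can be compared in FPKM, which the authors deposited and which divides by transcript length. The order thus rests on the lengths used, which counts and FPKM imply to run from 1.51 kb for Tarbp2 to 10.1 kb for Dicer1. Whether those lengths match the transcripts of these cells was not tested. In DMSO, Xpo5 stood highest at a mean of 20.4 FPKM, followed by Tarbp2 at 18.9 and Drosha at 16.2. Ago2 had 8.23 FPKM, Dgcr8 7.06, Ago1 5.06, Dicer1 3.04, Ago3 1.92 and Ago4 0.0404. The ranges of neighbours in this order did not overlap, except for Xpo5 and Tarbp2. In FSK the order was the same apart from Dgcr8 and Ago2, which changed places, with Dgcr8 at 9.37 FPKM and Ago2 at 5.79. Again only the ranges of Xpo5 and Tarbp2 overlapped. DROSHA and DGCR8 work in a single complex, yet the Drosha transcript was the more abundant of the pair per length in every library.

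Dgcr8 (ENSRNOG00000001886; chr11:86852711-86885224 on Rnor_6.0, plus strand) had the largest rise of the 9 genes. It had 35.7, 30.6 and 29.9 CPM in the DMSO libraries and 43.3, 43.8 and 46.9 CPM in the FSK libraries. Every FSK library was above every DMSO library, and DMSO replicate 1 lay closest to the FSK group. The means were 32.1 ± 3.18 and 44.7 ± 1.94 CPM (SD, n = 3), a log2 fold change of 0.48 ± 0.09 (standard error; edgeR adjusted p = 0.00331). Its adjusted p stayed at or below 0.018 when any library was left out. The change was 0.25 with limma on log2(FPKM + 5), a scale that shrinks the changes of low genes.

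The Dgcr8 transcript is itself known, in human and mouse cells, as a substrate of DROSHA, which cuts hairpins near its start. The table places the hairpin gene Mir1306 inside Dgcr8, on the same strand, 4921 bases from the start of the gene (chr11:86857632-86857711 on Rnor_6.0). Its sequence is shown because it is a hairpin within the gene that rose most; it is the RefSeq hairpin on GRCr8 (chr11:96213960-96214032, plus strand), with the 2 mature arms in capitals.
Mir1306: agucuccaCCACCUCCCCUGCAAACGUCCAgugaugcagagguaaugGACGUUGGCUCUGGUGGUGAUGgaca
The table lists Mir1306 with exactly 1 count in each of the 6 libraries, as it does a second hairpin gene within Dgcr8 and a hairpin gene within Drosha. Whether 1 is a measured count or a floor set by the counting was not settled, and these counts were not used as a measure of cutting.

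Drosha (ENSRNOG00000013451; chr2:62887267-62999572, plus strand), the nuclease of the complex, had 71.7, 72.4 and 74.3 CPM in DMSO and 82.6, 81.8 and 87.0 CPM in FSK. The groups were tight and did not overlap. The log2 fold change was 0.20 ± 0.05 (edgeR adjusted p = 0.0153), a rise of 15.1%. With a change of this size the call depended on single libraries: leaving out DMSO replicate 1 gave an adjusted p of 0.052, DMSO replicate 2 gave 0.0709 and FSK replicate 3 gave 0.0658. It was also lost when libraries were scaled by their totals alone (log2 fold change 0.13, adjusted p = 0.0645) and with limma on FPKM (adjusted p = 0.101 to 0.111). The log2 ratio of Drosha to Dgcr8 in FPKM does not depend on such scaling. It was 1.02, 1.26 and 1.33 in DMSO and 0.95, 0.92 and 0.91 in FSK, lower in each FSK library than in any DMSO library. The means were 1.21 ± 0.16 and 0.93 ± 0.02 (exact permutation test, two-sided, p = 0.1, the smallest that 3 against 3 libraries can give; 0.15 after adjustment over the 3 ratios computed).

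Xpo5 (ENSRNOG00000019085; chr9:17125201-17163170, minus strand) encodes the carrier that brings the hairpin out of the nucleus. It had 101.5, 97.2 and 103.8 CPM in DMSO and 109.7, 124.0 and 124.5 CPM in FSK. FSK replicate 1 lay nearer to the DMSO libraries than to the other two FSK libraries. The log2 fold change was 0.24 ± 0.07 (edgeR adjusted p = 0.0191). Leaving out DMSO replicate 2 gave an adjusted p of 0.0817, FSK replicate 2 gave 0.0765 and FSK replicate 3 gave 0.0695, library totals alone gave 0.0545 and limma on FPKM gave 0.0735 to 0.0784. The flanking genes, which were looked at after the values were seen, went different ways: Polh, 184 bases away on the opposite strand, fell by 0.51 on the log2 scale (edgeR adjusted p = 0.00699), and Polr1c, 330 bases away on its other side, rose by 0.31 (edgeR adjusted p = 0.00773).

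Tarbp2 (ENSRNOG00000042355; chr7:144121744-144126857, plus strand), whose protein helps DICER1 and hands the cut duplex to Argonaute, had 29.7, 28.4 and 25.3 CPM in DMSO and 33.9, 32.3 and 35.1 CPM in FSK. The groups did not overlap, with DMSO replicate 3 the lowest library. The log2 fold change was 0.28 ± 0.09 (edgeR adjusted p = 0.0329). Leaving out any library except DMSO replicate 1 ended the call, with adjusted p-values of 0.0776 for DMSO replicate 2, 0.0651 for DMSO replicate 3, and 0.0727, 0.0581 and 0.095 for FSK replicates 1, 2 and 3. It was also lost with library totals alone (0.0643).

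Dicer1 (ENSRNOG00000010711; chr6:128388053-128434183, minus strand), the cytoplasmic nuclease, had 25.7, 33.4 and 30.9 CPM in DMSO and 26.4, 21.9 and 23.4 CPM in FSK. DMSO replicate 1 lay below FSK replicate 1, so the groups overlapped. The log2 fold change was -0.33 ± 0.12 with a 95% interval of -0.60 to -0.05, and the adjusted p of 0.0604 missed the threshold (edgeR). Without DMSO replicate 1 the value was -0.43 (adjusted p = 0.0175), and without FSK replicate 1 it was -0.41 (0.0477); the other 4 libraries left out in turn gave -0.31 to -0.24, with adjusted p = 0.2 without DMSO replicate 2, 0.128 without DMSO replicate 3, 0.188 without FSK replicate 2 and 0.147 without FSK replicate 3. Dicer1 passed under 5 of the 17 other choices. DESeq2 gave an adjusted p of 0.0239, library totals alone 0.0382 and robust dispersion 0.0441. Dicer1 has the longest transcript of the 9, 10.1 kb as implied by its counts and FPKM. Over all tested genes, fold changes fell slightly with that length (Spearman correlation -0.18, across genes, which are not independent replicates). With this trend removed the Dicer1 value was -0.00169 (adjusted p = 0.993). Under the same choice the rises of Drosha, Dgcr8 and Xpo5 were larger, at 0.32, 0.60 and 0.38. That of Tarbp2 was smaller, at 0.26, and the falls of Ago2 and Ago3 were smaller in size, at -0.39 and -0.89. Each of these called genes still passed (edgeR adjusted p = 0.00113 to 0.047). Whether transcript length has a part in the Dicer1 difference was not tested. The log2 ratio of Tarbp2 to Dicer1 was 2.96, 2.51 and 2.46 in DMSO and 3.11, 3.31 and 3.33 in FSK, higher in each FSK library (means 2.64 ± 0.27 and 3.25 ± 0.12; exact permutation p = 0.1, adjusted 0.15). The ratio of Ago2 to Dicer1 overlapped between the groups (1.45 ± 0.27 and 1.33 ± 0.30; exact permutation p = 0.6).

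**Figure D2:**
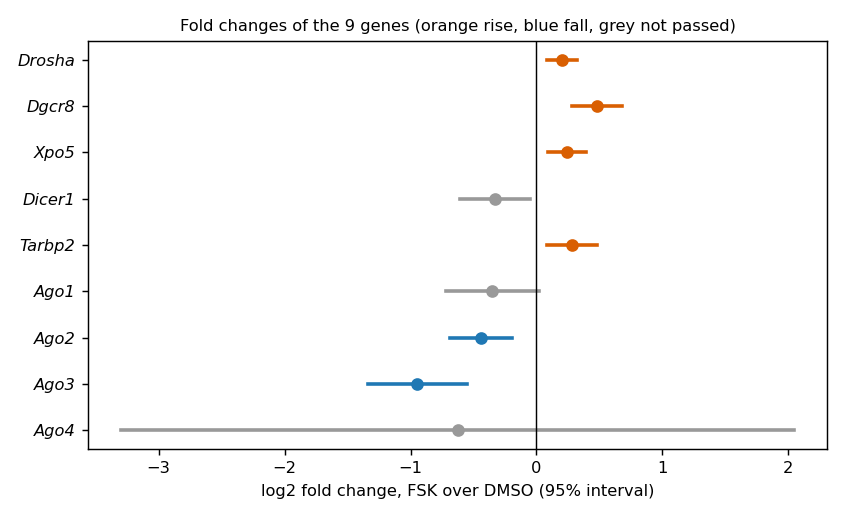
Log2 fold change of FSK over DMSO for each of the 9 genes, with its 95% interval from the edgeR fit (3 libraries per group). Drosha, Dgcr8, Xpo5 and Tarbp2 are right of 0, Ago2 and Ago3 are left of 0, and the interval of Ago4 runs from -3.29 to 2.04.

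Of the Argonaute genes, Ago2 and Ago3 fell, Ago1 had a value of the same sign that did not pass, and Ago4 was hardly present. Ago2 is the paralogue whose protein can itself cut a target; all of them can recruit the silencing machinery. Ago1, Ago3 and Ago4 lie side by side on the minus strand of chr5, in an interval of 192.6 kb (chr5:144364269-144556889), and Ago2 lies alone on chr7. The paralogues resemble each other in sequence, and how reads shared between them were counted is not given in the sources used here.

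Ago2 (ENSRNOG00000008533; chr7:114339434-114380613, minus strand) had 27.5, 25.7 and 23.9 CPM in DMSO and 16.6, 20.5 and 19.7 CPM in FSK. All FSK libraries were below all DMSO libraries. The means were 25.7 ± 1.77 and 19.0 ± 2.06 CPM (n = 3), a log2 fold change of -0.44 ± 0.11 (edgeR adjusted p = 0.013). It ran from -0.50 to -0.35 when any library was left out, with adjusted p of at most 0.0424.

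Ago3 (ENSRNOG00000034269; chr5:144364269-144436509, minus strand) had 5.36, 6.32 and 6.46 CPM in DMSO and 2.63, 3.45 and 3.34 CPM in FSK. The highest FSK library was well below the lowest DMSO library. The means were 6.04 ± 0.60 and 3.14 ± 0.44 CPM, a log2 fold change of -0.95 ± 0.17 (edgeR adjusted p = 0.00331), the largest of the members that passed and larger in size than that of 86.4% of all tested genes. On the limma scales it was -0.58 with a pseudocount of 1 and -0.22 with a pseudocount of 5, and both passed.

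Ago1 (ENSRNOG00000055915; chr5:144448792-144479306, minus strand), whose gene is the neighbour of Ago3, had 12.7, 16.6 and 14.6 CPM in DMSO and 9.27, 13.5 and 11.6 CPM in FSK. The groups overlapped, since FSK replicate 2 lay above DMSO replicate 1. The log2 fold change was -0.35 ± 0.16 with a 95% interval of -0.72 to 0.02 (edgeR adjusted p = 0.117), and it did not pass under any of the 17 other choices (adjusted p = 0.0554 to 0.324). A fall as large as that of Ago2 lies inside this interval. Ago4 (ENSRNOG00000025596; chr5:144504938-144556889, minus strand) was nearly silent. Its 3 DMSO libraries held 4, 22 and 11 counts, and its 3 FSK libraries held 0, 8 and 14. At this depth no difference was detectable (edgeR, -0.63 on the log2 scale with adjusted p = 0.705; 0.06 when DMSO replicate 2 was left out, and -1.43 when FSK replicate 3 was). The gene on the far side of Ago3, Adprhl2, rose by 0.28 (edgeR adjusted p = 0.0105), and the one beyond Ago4, Clspn, fell by 0.53 (0.00451); both were chosen for their place, after the values were seen.

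Summed over the 4 paralogues, the Argonaute transcripts came to 14.7, 16.0 and 15.1 FPKM in DMSO and 9.04, 11.8 and 10.8 FPKM in FSK. The FSK mean was 69.1% of the DMSO mean, and the sum was not tested. FPKM lacks the TMM factor, which was 1.01 to 1.04 in DMSO and 0.96 to 0.99 in FSK. On the scale of the fit the FSK mean would thus be a larger share. Ago2 made up 54.1 ± 4.37% of the sum in DMSO and 55.1 ± 1.81% in FSK, and Ago1 33.1 ± 3.33% and 35.7 ± 1.79%; both sets of values overlapped (exact permutation p = 0.8 and p = 0.4). Ago3 made up 11.4, 12.5 and 13.9% in DMSO and 8.93, 8.86 and 9.26% in FSK, a difference of -3.58 percentage points without overlap (exact permutation p = 0.1, the smallest possible; 0.4 adjusted over the 4 paralogues). Ago4 was at most 0.447% of the sum in any library.

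**Figure D3:**
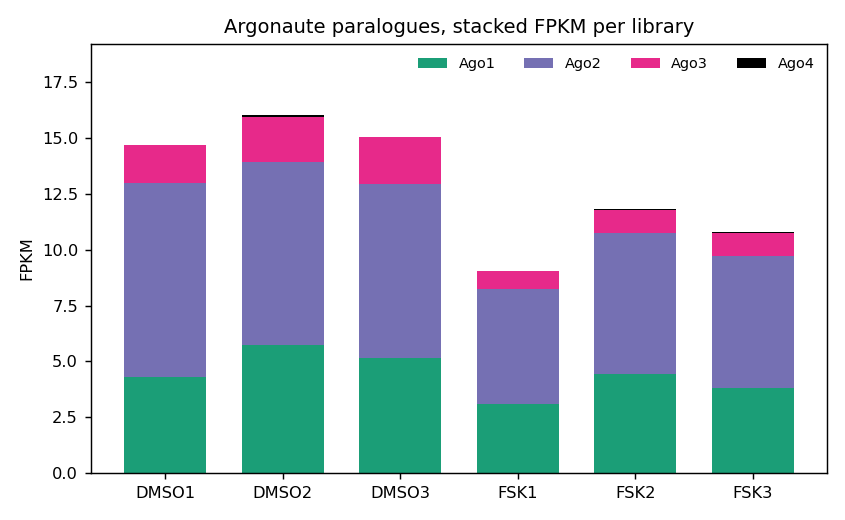
FPKM of Ago1, Ago2, Ago3 and Ago4 stacked for each library; the height of a bar is their sum. The 3 FSK bars reach 9.04 to 11.8 FPKM and the 3 DMSO bars 14.7 to 16.0, Ago2 is the largest part of each bar, and Ago4 is a line at the top.

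Forskolin acts on transcription in part through CREB, which binds the cAMP response element (CRE) TGACGTCA or its shorter core TGACG. RefSeq promoters on GRCr8, 250 bases before to 50 after the gene start, were found for 8 of the 9 genes, all but Ago2. None held TGACGTCA, which reads the same on both strands and was in 1.83% of all 33469 promoters. TGACG on either strand was in 3 of the 8, those of Drosha, Ago3 and Ago4, and in 21.2% of all promoters. It overlaps the full element. The promoters of Ago3, which fell most among the members that passed, and Dgcr8, which rose most, are shown to let the windows be compared, with each TGACG, or CGTCA where it is read on the other strand, in capitals (Ago3: chr5:143998688-143998987, minus strand; Dgcr8: chr11:96208788-96209087, plus strand).
Ago3: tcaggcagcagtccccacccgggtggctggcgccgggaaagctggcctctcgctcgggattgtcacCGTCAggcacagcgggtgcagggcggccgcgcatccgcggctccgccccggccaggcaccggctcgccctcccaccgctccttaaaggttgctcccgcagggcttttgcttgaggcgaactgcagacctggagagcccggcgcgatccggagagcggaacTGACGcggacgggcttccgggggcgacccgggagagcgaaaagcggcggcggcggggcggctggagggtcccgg
Dgcr8: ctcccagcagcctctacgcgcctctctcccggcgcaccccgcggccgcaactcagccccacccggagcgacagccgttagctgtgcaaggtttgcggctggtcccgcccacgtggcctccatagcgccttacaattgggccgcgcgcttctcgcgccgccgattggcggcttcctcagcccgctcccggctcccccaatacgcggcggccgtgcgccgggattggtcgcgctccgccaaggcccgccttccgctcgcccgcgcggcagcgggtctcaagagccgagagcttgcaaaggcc
In Ago3 the cores start 184 and 24 bases before the gene start, and in Dgcr8 there is none. A match is a description of these letters only.

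The 2 genes most like each called member over the 6 libraries, by Pearson correlation of log2 CPM among 10222 other genes with a symbol and a mean of at least 1 FPKM, were Gramd4 and Zkscan5 for Drosha, Hgh1 and Nab2 for Dgcr8, and Ranbp10 and Ing4 for Xpo5. They were Smim7 and Il10rb for Tarbp2, Focad and Zw10 for Ago2, and Ttl and Tmem245 for Ago3. The correlations were 0.996 to 0.999. Because the 6 points share the split into 2 groups, many genes score high: 967 genes had a correlation above 0.95 with Dgcr8 and 633 with Ago3, but 109 with Xpo5.

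Beyond the 9 genes, the pathway was described by 6 lists of its other genes, 85 in all, of which 80 were found in the table and 77 were tested. Of these, 10 rose, 23 fell and 44 did not pass, with a median log2 fold change of -0.14 beside -0.01 for all tested genes. The calls were 42.9% of the genes, near the 39.4% of all tested genes. Among all tested genes the directions were near even, with 19.6% as rises and 19.8% as falls. The balance depended on processing: with the length trend removed 13 rose and 16 fell, with library totals alone 3 rose and 30 fell, and with any one library left out 3 to 8 rose and 15 to 22 fell. The rises dropped to 4 without DMSO replicate 2, 3 without FSK replicate 2 and 5 without FSK replicate 1 or FSK replicate 3, and the falls to 15 without FSK replicate 3. Of 24 genes named by rule from these lists, 10 passed under every other choice; the other 14 lost the call when some library was left out. DMSO replicate 2 ended 12 of those calls, FSK replicate 2 ended 11, FSK replicate 3 ended 10, FSK replicate 1 ended 7, and DMSO replicates 1 and 3 ended 5 each. For each of those 14 the highest adjusted p with a library left out is given below. The calls of Ddx5, Ddx17, Mettl3, Cnot8, Eif4e2, Pabpc1 and Parn were also lost with library totals alone and with limma.

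Of 13 tested cofactors of the Microprocessor, 3 rose and 4 fell (median log2 fold change -0.00). The share that passed was 53.8%, beside 39.4% of all tested genes, of which 19.6% rose and 19.8% fell. The RNA-binding protein genes Hnrnpa2b1 (-0.38, edgeR adjusted p = 0.0067), Tardbp (-0.37, 0.00799) and Hnrnpa1 (-0.26, 0.00337) fell. Hnrnpa1 went from 336.5 ± 6.53 to 281.7 ± 9.31 CPM. The helicase genes Ddx5 and Ddx17, whose proteins join DROSHA, had 0.24 (edgeR adjusted p = 0.0164, up to 0.0657 with a library left out) and 0.23 (0.0231, up to 0.0853), the same sign as Drosha. The RNA methyltransferase gene Mettl3 had 0.20 (0.0377, up to 0.11). Of 4 genes of export and the Ran cycle, 1 fell: Xpo1, which encodes the general export receptor, went from 152.3 ± 15.5 to 94.9 ± 5.01 CPM (log2 fold change -0.68 ± 0.08, edgeR adjusted p = 0.000406). Xpo5 had a value of the opposite sign. In this list of 4 genes 25% passed, beside the 39.4% of all tested genes.

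Of 9 tested genes for precursor modification and dicing partners, 1 rose and 3 fell (median -0.20). The share that passed was 44.4%, near the 39.4% of all tested genes. Lin28a, Lin28b and Trim71 had 0 counts in every library and were not tested. The adenylating enzyme gene Tent2 had -0.65 (edgeR adjusted p = 0.0274, up to 0.0966 with a library left out), the exonuclease gene Dis3l2 -0.36 (0.0176, up to 0.0694) and the RNA editing gene Adarb1 -0.34 (0.0223, up to 0.0704; 0.38 with the length trend removed). Zc3h12a, encoding a nuclease known in human cells to destroy microRNA precursors, had 0.23 (0.0176, up to 0.062). Of 13 genes for Argonaute loading and binding, 2 rose and 4 fell (median -0.10). In this list 46.2% passed, beside 39.4% of all tested genes. Of its 8 genes for chaperones and their partners, which open Argonaute for a duplex, 1 rose, 1 fell and 6 did not pass, Hsp90ab1 among these (0.09, edgeR adjusted p = 0.123). Hspa8 rose from 836.7 ± 80.7 to 1199 ± 59.3 CPM (log2 fold change 0.52 ± 0.07, edgeR adjusted p = 0.00105), and Hsp90aa1 fell by 0.44 (0.00286). The helicase gene Mov10 fell from 77.7 ± 3.33 to 51.6 ± 2.77 CPM (-0.59 ± 0.06, edgeR adjusted p = 0.000252). Of the fragile X family, Fxr2 rose by 0.29 (0.00384), whereas Fmr1 had -0.50 (0.0298, up to 0.0991; 0.0702 with the length trend removed). The other member, Fxr1, named here after its values were seen, had -0.42 (edgeR adjusted p = 0.0263). Leaving out DMSO replicate 3, FSK replicate 2 or FSK replicate 3 gave it 0.0796, 0.0872 and 0.0884, and the replicate block gave 0.0697. Hnrnpa1, Hspa8, Hsp90aa1 and Pabpc1 belong to families with near copies in the genome, so their values are uncertain to the extent that reads were shared.

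Of 30 tested silencing effectors, the proteins through which Argonaute shortens and silences a message, 3 rose and 10 fell (median -0.19). The share that passed was 43.3%, near the 39.4% of all tested genes, of which 19.6% rose and 19.8% fell. Cnot6l, a deadenylase subunit gene, changed most: it fell from 15.5 ± 2.81 to 7.41 ± 0.594 CPM (log2 fold change -1.07 ± 0.15, edgeR adjusted p = 0.000906). Tnrc6a, encoding a scaffold that binds Argonaute, had -0.51 (0.0191, up to 0.0641 with a library left out, and 0.242 with the length trend removed). Its paralogues, named here after their values were seen, differed: Tnrc6c had -0.33 (edgeR adjusted p = 0.0287), and Tnrc6b had -0.15 (0.733) and did not pass. How these values depend on single libraries is not given here. Ajuba had -0.79 (0.0207, up to 0.0717). Small positive values belonged to Cnot8 (0.20; 0.0412, up to 0.152), Eif4e2 (0.20; 0.0487, up to 0.16) and Pabpc1 (0.16; 0.0386, up to 0.117). Of 8 genes of microRNA turnover, 1 rose and 1 fell (median -0.14). That is 25% of the list, beside 39.4% of all tested genes. The exonuclease gene Eri1 fell from 31.4 ± 3.97 to 18.4 ± 1.77 CPM (-0.77 ± 0.12, edgeR adjusted p = 0.00149), and Parn, encoding a trimming ribonuclease, had 0.30 (0.0193, up to 0.0637).

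**Figure D4:**
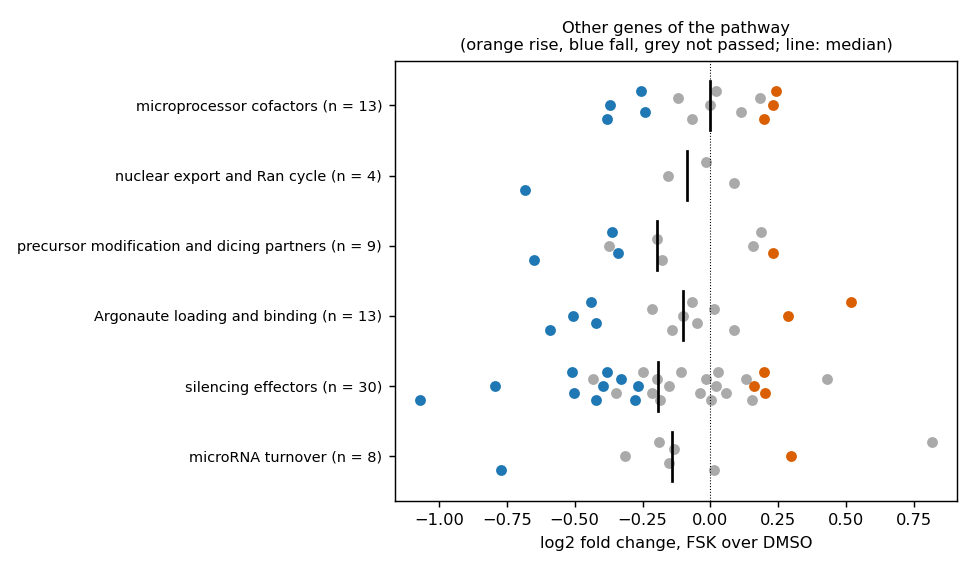
Log2 fold change of FSK over DMSO for the 77 tested genes of the 6 lists, 1 dot per gene, with the list's median as a line. Falls outnumber rises among the silencing effectors, 10 to 3, and 43.3% of this list passed, beside 39.4% of all tested genes. The lowest dot is Cnot6l at -1.07.

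**Figure D5:**
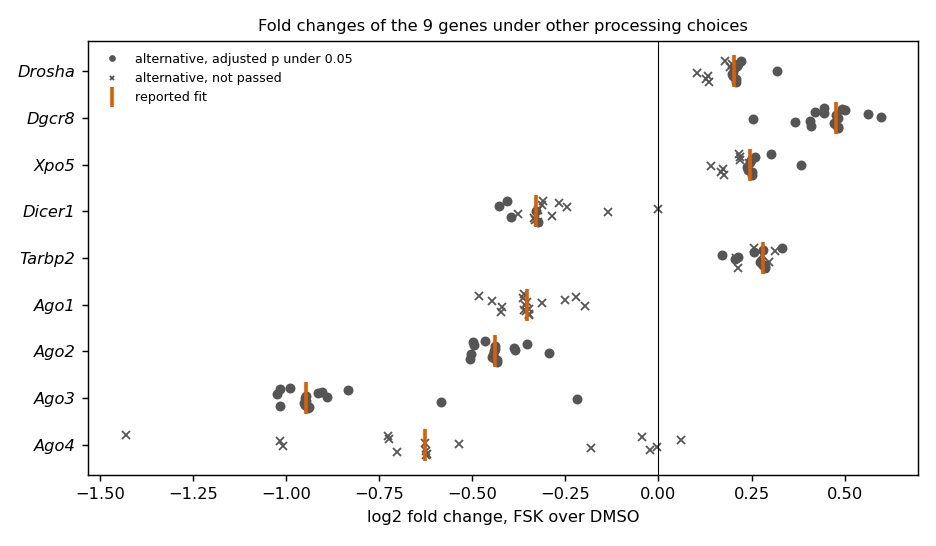
Log2 fold change of each of the 9 genes in the reported fit and under the 17 other processing choices (16 for Ago4), with dots for choices in which the gene passed and crosses for those in which it did not. Dgcr8, Ago2 and Ago3 have dots only, Ago1 and Ago4 crosses only, and the values of Drosha, Xpo5 and Tarbp2 stay above 0.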

How the data were processed

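C6 cells were sequenced as total RNA in 3 DMSO and 3 FSK libraries. The authors deposited whole-number counts and FPKM values per gene, both so named in the file headers; FPKM is listed as 0.0001 where the count is 0. Cutadapt, HISAT2, StringTie, edgeR, DESeq2 and the build Rnor_6.0 are named per the submitters' processing notes; versions, annotation release, strand rule and counting unit were not given in the sources used here.

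The counts of all 32623 genes entered a single test in edgeR 4.0.16 (R 4.3.3) with TMM scaling (default expression filter with a minimum count of 10, quasi-likelihood fit, no block), which left 14166 genes. The threshold was an adjusted p of 0.05. Standard errors come from the F statistic. Limma 3.58.1, DESeq2 1.42.0 and the other choices in the closing section were alternatives; robust dispersion was added after the data were seen. Ratios and shares in FPKM were tested by exact permutation (SciPy 1.17.1). The test was checked on simulated counts. Replicate pairs were not duplicates: their chi-square over genes was 31.2 to 56.5 times its degrees of freedom. The biological coefficient of variation was 20.8%.

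The members and lists were chosen with earlier results of these data known. All 9 members were named; from each list, up to 3 rises and 3 falls, the largest among called genes without overlap; and for each called member the 2 genes most like it. Srrt, Safb2, Ipo8, Gigyf2, Wtip and Pecam1 are not analysed here.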

Additional observations from a re-analysis of the deposited data

How the results depend on the processing

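The direction of Drosha, Dgcr8, Xpo5, Tarbp2, Ago1, Ago2 and Ago3 was the same under each of the 17 alternatives; Dicer1 was at -0.00169 with the transcript length trend removed, and Ago4 turned to 0.0595 without DMSO replicate 2, against -1.43 without FSK replicate 3. Over all genes, rises numbered 2772 and falls 2804, and the counts with a library left out were 2169 to 2667 and 2076 to 2738. Rises were 49.7% of calls, 39.9% with library totals alone, 41.4% with limma at a pseudocount of 1 and 55.2% with the length trend removed. Members that rose numbered 1 with library totals alone, 2 (Dgcr8 and Tarbp2) with limma at pseudocounts of 1, 0.1 and 5, 1 with the replicate block, and 1 to 3 with a library left out. The median of the members was -0.0697 with a mean FPKM of at least 1, -0.0238, -0.182 and -0.0049 with limma at pseudocounts of 1, 0.1 and 5, -0.00169 with the length trend removed, and -0.388 to 0.0595 with a library left out. It rests on few genes: with limma it was the value of Ago4, and with the length trend removed that of Dicer1. The FPKM minimum drops Ago4. Pathway genes that rose numbered 3 with library totals alone, 6 without a filter, 3 with each limma setting and 4 with the replicate block, and 3 to 8 with a library left out; falls were 15 to 22 then. The pathway median was -0.21 with library totals alone, -0.19 and -0.20 with limma at pseudocounts of 1 and 0.1, -0.0887 with the length trend removed, and -0.16 to -0.10 with a library left out. Causes were not tested, except that fewer libraries or genes are part of those settings. The limma settings use FPKM, which lacks the TMM factor, as do library totals alone, so these choices are not independent of each other.

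With the replicate number as a block, the adjusted p was 0.0529 for Drosha, 0.0525 for Xpo5 and 0.0795 for Tarbp2, and no call of another member changed. Over all genes, 2160 rose and 2165 fell with the block. Over all tested genes, the deviations of same-numbered libraries from their group means had correlations of -0.0407, 0.0177 and -0.0354. The labels give no pairing, and whether same-numbered libraries shared a culture or a day was not tested. With CPM in place of FPKM or any library left out, differences in shares and ratios moved by less than the SD pooled over the groups. With a library left out, items whose groups overlap still ranged widely: the Ago2 share difference from -0.363 (DMSO replicate 2) to 3.57 points (DMSO replicate 1), around 1.05; that of Ago1 from 0.73 to 3.96, around 2.58; that of Ago4 from -0.15 to 0.05; and the Ago2 to Dicer1 ratio from -0.24 to 0.05, around -0.12. The difference in the Ago3 share was -4.16 to -2.95 points, that of the Drosha to Dgcr8 ratio -0.37 to -0.21 and that of the Tarbp2 to Dicer1 ratio 0.51 to 0.76. Depth limits Ago4 most: with 0 to 22 counts per library, its interval spans both directions.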

Other observations

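Of 1563 microRNA genes in the table, 379 had a count in any library, and 34 had exactly 1 count in each of the 6 libraries. Of those 34, 32 lie inside another gene on the same strand. The hairpins within Dgcr8 and Drosha are among them, and their counts were not used as a measure of processing; whether 1 is a floor set by the counting was not settled. Genes of other types with this pattern were few: 39 genes of any type had it.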
